A study of Mus musculus with 24 samples.

Results

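The genes examined here were 10 mediators of inflammation: the interleukin-1 ligands Il1a and Il1b and their antagonist Il1rn, the cytokines Il6 and Tnf, the chemokines Cxcl2, Ccl3, Ccl4 and Ccl9, and the inflammasome sensor Nlrp3. They were chosen by name from 21938 protein-coding genes, and every accessible region within a gene or 30 kb of it was taken, whatever its values. Chromatin accessibility had been measured by ATAC-seq, which uses the transposase Tn5 to cut accessible DNA, in 24 libraries of stem and progenitor cells sorted from the bone marrow of C57BL/6 mice. The comparisons ask whether loss of Daxx, a chaperone that deposits histone H3.3, opens these genes in stem cells, and whether such opening needs the transcription factor Pu.1 (encoded by Spi1).

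All mice carried one Cre allele (Cre +/-), the controls too. Daxx-WT mice were Daxx +/+ and Daxx-KO mice Daxx F/F, and double-knockout (DKO) mice were Daxx F/F Pu.1 F/F. Daxx-WT and Daxx-KO were each represented by 2 libraries of long-term haematopoietic stem cells (LT-HSCs), 2 of CMPs (common myeloid progenitors) and 2 of GMPs (granulocyte-monocyte progenitors) whose labels carry no time. For LT-HSCs collected 3 days post induction (3 d.p.i.) there were 3 libraries of Daxx-KO and 2 of Daxx-WT mice. For KLS cells, the c-Kit+ Lin- Sca-1+ fraction that holds the stem cells, collected 3 weeks post induction (3 w.p.i.), there were 3 libraries of Daxx-KO, 2 of Daxx-WT and 2 of DKO mice. The labels give neither the Cre driver nor the age. The methods describe ATAC-seq of LT-HSCs, CMPs and GMPs from RosaCreERT2 mice at 3 w.p.i., with Cre induced by tamoxifen. They also place the genomic analyses at 3 d.p.i. in RosaCreERT2 mice given tamoxifen. The Pu.1 F/F line, in contrast, was crossed to Mx1Cre mice, in which Cre is induced by pI:pC, itself an inducer of interferon. For age, the methods give a usual range at treatment for the mice in general and none per library. No library lacking Pu.1 alone was analysed here. Each of the 11 groups had 1 peak list, without replicates. Each of 3 tables listed sites chosen by the authors for a difference between 2 groups, with a value per library.

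Interleukin-1 is made by the myeloid cells of blood and marrow, binds a receptor shared by its alpha and beta forms, and is blocked by the antagonist that Il1rn encodes. The beta form is released once an inflammasome, such as that built on Nlrp3, has activated caspase-1. Tumour necrosis factor and interleukin-6 act beside it in acute inflammation, and the chemokines of the CC and CXC families draw in monocytes and neutrophils. Many of these genes are kept ready for use in myeloid cells by Pu.1, C/EBP, AP-1 and NF-kappaB factors bound at promoters and distal elements.

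The libraries were checked first. At the listed site over Daxx on chromosome 17, the 3 Daxx-KO LT-HSC libraries at 3 d.p.i. had 61.2 to 109 scaled reads and the 2 Daxx-WT libraries 201 to 366. The wider of 2 sites over Daxx held 54.6 to 90.1 scaled reads in Daxx-KO KLS cells against 255 to 295 in Daxx-WT, and the last of 5 sites over Spi1 held 2.12 and 4.68 in DKO against 31.1 and 58.1, the other 4 being higher in DKO. A scaled read here is a read at a site divided by the constant that the authors gave each library. Average depth was 4.21 to 16 reads per window of 600 bp. Of 6 stem and progenitor genes, 3 to 5 had a promoter peak in each list: Kit, Mecom and Hlf in all 11, Cd34 in all but DKO, Slamf1 in neither GMP list, no KLS list and not in Daxx-WT at 3 d.p.i., and Ly6a in none. The T-cell genes Cd3e, Cd3g and Cd4 had one in no list. Of 6 granulocyte or monocyte genes (Mpo, Elane, Itgam, Ly6g, Csf1r and Cebpe), 1 had a promoter peak in either LT-HSC list at 3 d.p.i. and 5 in both GMP lists. Among KLS lists it was 2 in Daxx-WT, 3 in Daxx-KO and 1 in DKO, and in such bulk samples a shift in the mix of cells and a change within the cells cannot be told apart.

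Around the 10 genes the 11 lists together held 87 separate elements, a merged element being any run of overlapping peaks. At 3 d.p.i. the LT-HSC list of Daxx-KO had 35 peaks there and that of Daxx-WT 28. Of the 35, 8 (22.9%, exact 95% binomial interval 10.4 to 40.1%, counting error only) had no Daxx-WT peak, against 24.1% of the whole Daxx-KO list. None of the 28 Daxx-WT peaks lacked a Daxx-KO peak, against 8.68% of that list. The 8 peaks lay at 7 genes, namely Il1a, Il1b, Il6, Cxcl2, Ccl9 and Nlrp3 with 1 each and Tnf with 2. The share of peaks gained was thus close to that of the whole list. Of the elements around the genes, 27 had a peak in both lists. Their median ratio of fold enrichments, Daxx-KO to Daxx-WT, was 1.06, against 1.08 over all 33026 such elements. The ratio was above 1 at 18 of the 27, against 74.6% of all. It was lowest at Ccl4 (0.852, percentile 3.85) and Ccl3 (0.867, percentile 4.75).

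The table of sites for the same cells listed 11 sites around the genes, 7 of them higher in Daxx-KO and 4 lower. The share of higher sites in the table as a whole was 29.1%. The 7 lay at Il1a, Il1b, Tnf and Ccl9, so that 4 of 10 genes had a higher site, against 19.7% of protein-coding genes, and 5 of 10 had a lower one, against 36.4%. At all 11 sites the libraries of the groups did not overlap, as held for 99.5% of the table, since sites were selected on these libraries. In limma, with Benjamini-Hochberg adjustment over the 413247 windows tested, 0 of the 11 sites and 0% of the table passed an adjusted p of 0.05, while 10 of the 11 had an unadjusted p below 0.05. In simulated data with the noise of this table, 0 of 50 sites changed by a log2 of 1 passed, so a site not called is not shown to be unchanged. The values below are those of selected sites, and differences are on the log2(value + 1) scale.

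**Figure D1:**
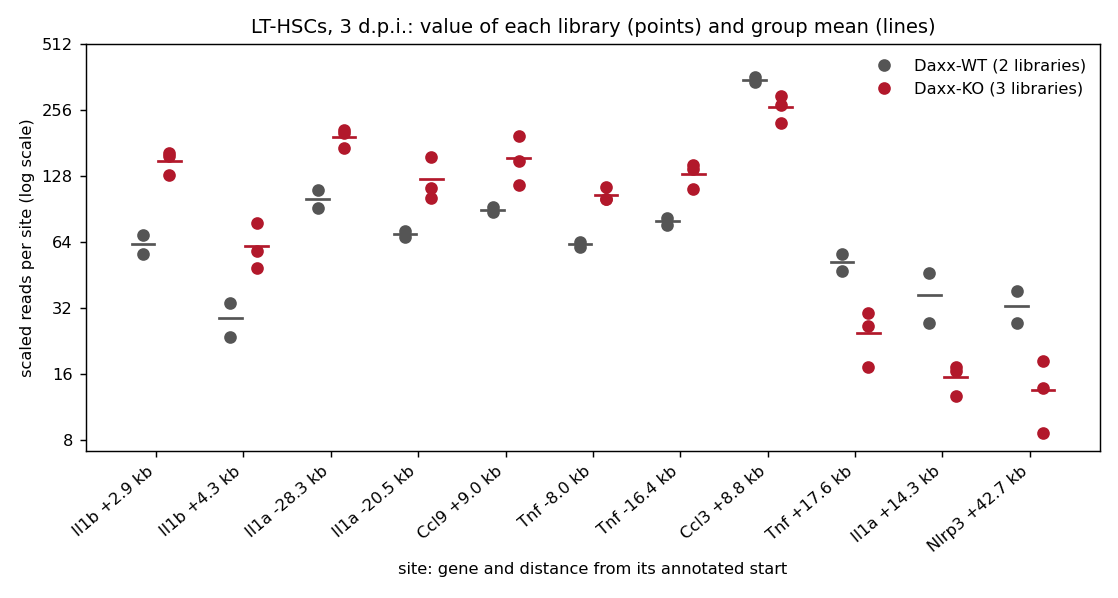
Scaled reads per library (log axis) at the 11 listed sites around the genes in LT-HSCs at 3 d.p.i., with lines at the group means, ordered by the ratio of means. The 3 Daxx-KO libraries lie above both Daxx-WT libraries at the first 7 sites, 4 of them at Il1a and Il1b, and below both at the last 4. The groups did not overlap at 99.5% of all listed sites, which were selected on these libraries.

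Il1b, on the minus strand of chromosome 2 at 129364570 to 129371139 (mm10), had the site with the greatest ratio of means. It lay 2.86 kb inside the gene, over an exon and next to a second annotated start site. The Daxx-KO libraries read 162, 158 and 129 scaled reads, and the Daxx-WT libraries 68.7 and 56.3. Every Daxx-KO library was above both controls, and non-overlap of the groups held for 99.5% of the selected sites. The log2 difference was 1.25 (SE 0.237, limma adjusted p = 0.301). A peak of 471 bp stood there in the Daxx-KO list (fold enrichment 7.3) and none in Daxx-WT. The 1 other list with a peak at this place was that of Daxx-WT CMPs, 414 bp wide. A second site 4.26 kb inside Il1b had 78, 48.7 and 58.1 scaled reads in Daxx-KO against 33.8 and 23.4 in Daxx-WT. This one overlapped no peak of any list.

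Between Il1b and Il1a lay an element within 30 kb of both, 28.3 kb upstream of Il1a and 1004 bp wide when merged. Its site at 3 d.p.i. had 207, 201 and 171 scaled reads in Daxx-KO against 110 and 91 in Daxx-WT, a log2 difference of 0.94 (SE 0.231, limma adjusted p = 0.311). The peak widened from 650 to 983 bp and its fold enrichment went from 7.73 to 14, a ratio of 1.81 that stood at percentile 99.6 of the 33026 elements held by both lists, whose median ratio was 1.08. The element was present in every list but that of DKO cells. In KLS cells it had a fold enrichment of 9.21 in Daxx-WT and 12.7 in Daxx-KO, the latter at percentile 98.1 of its list. The DKO libraries had 56.2 and 75.9 scaled reads there and the Daxx-WT KLS libraries 120 and 125 (log2 difference -0.90, SE 0.359, limma adjusted p = 0.122). With values scaled to the mean reads per window the adjusted p was 0.00615.

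Il1a itself (chromosome 2, 129299610 to 129309972, minus strand) had no peak within 1000 bp of its start in any list. A pair of further elements upstream of it had different values at 3 d.p.i. The first, 20.6 kb upstream, had a peak of 1490 bp in Daxx-KO (fold enrichment 6.83) and none in Daxx-WT. Its site read 113, 156 and 101.3 scaled reads in Daxx-KO against 72.1 and 67.5 in Daxx-WT (log2 difference 0.79, SE 0.258, limma adjusted p = 0.651). Among the other lists it was held by the LT-HSC lists without a time label, of 1517 bp in Daxx-WT and 1497 bp in Daxx-KO, and by no CMP, GMP or KLS list. Of the 4 LT-HSC lists, that of Daxx-WT at 3 d.p.i. was thus the 1 without it.

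The second, 4.21 kb upstream of Il1a, was in all 11 lists and was not a listed site. Its fold enrichment was 4.97 in Daxx-WT and 9.51 in Daxx-KO LT-HSCs at 3 d.p.i., a ratio of 1.91 at percentile 99.8. In KLS cells it was 6.55 in Daxx-WT, 10.7 in Daxx-KO and 6.27 in DKO. The width went from 571 to 1223 bp and back to 508 bp in the same order. Its central 300 bases held a Pu.1 motif (GAGGAAGT) and its peak was in the DKO list. The lone lower site near Il1a at 3 d.p.i. lay 14.3 kb downstream of its start, in an intron of Ckap2l, with 16.5, 17.2 and 12.7 scaled reads against 46.2 and 27.2. It overlapped no peak.

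Just before Il1b, 2.32 kb upstream of its start, an element of 934 bp was held by every list but that of DKO cells. Its fold enrichment at 3 d.p.i. was 11.2 in Daxx-WT and 11.3 in Daxx-KO. In KLS cells the fold enrichment was 7.01 in Daxx-WT and 10.6 in Daxx-KO. The DKO libraries had 43.5 and 63.7 scaled reads at its site, the Daxx-WT libraries 113 and 114 (log2 difference -1.09, SE 0.359, limma adjusted p = 0.0271). With the shared element counted too, Il1b had 3 peaks within 30 kb in each of the Daxx-WT and Daxx-KO KLS lists and 0 in the DKO list. In the DKO list 29.7% of protein-coding genes had 0.

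**Figure D2:**
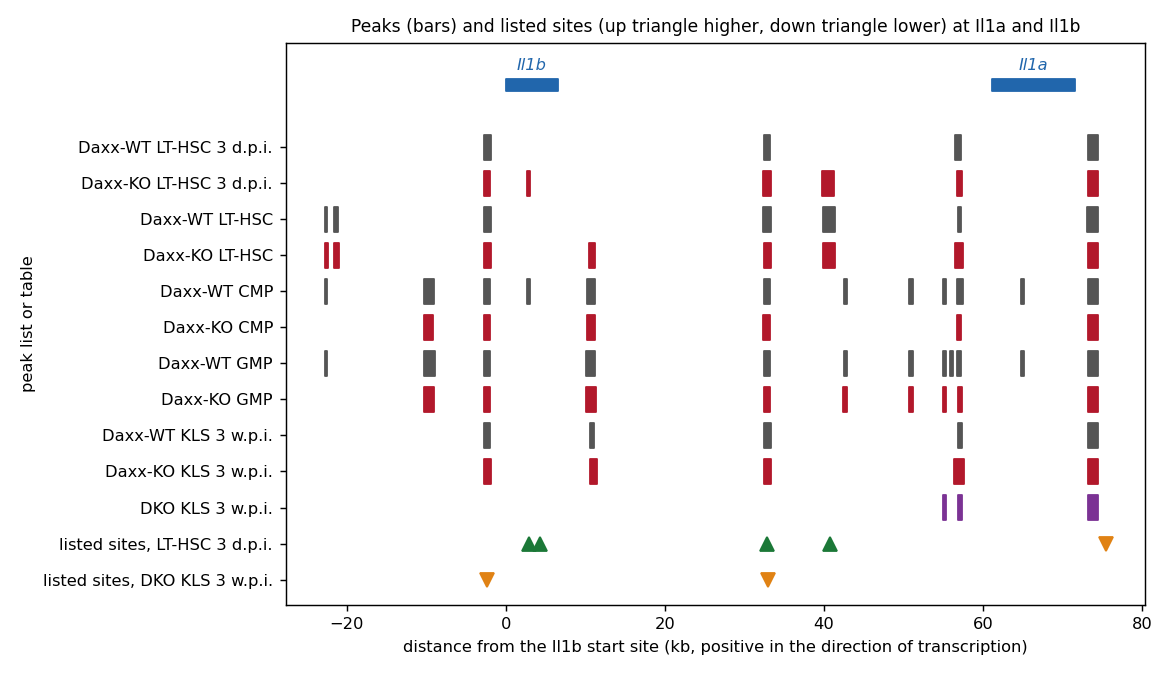
Peaks of the 11 lists (bars, 1 row per list) and listed sites of 2 tables (triangles pointing up for higher and down for lower than Daxx-WT) around Il1b and Il1a, with the distance from the Il1b start site in kb on the horizontal axis. The DKO row has no bar at Il1b or at the element shared by both genes, where the DKO triangles point down, and the Daxx-KO row at 3 d.p.i. has bars inside Il1b and 20.6 kb upstream of Il1a that the Daxx-WT row lacks.

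The sequences of these 3 upstream elements are given because they carry the gain at 3 d.p.i. or the absence in DKO cells. Each is the central stretch of 300 bases of the merged element in RefSeq GRCm38.p6 (mm10). Capitals mark the motifs searched for on both strands, GAGGAAGT for Pu.1, TGANTCA for AP-1, TTGCNNAA for C/EBP and the consensus of NF-kappaB.
Il1a upstream element, 20.6 kb, chr2:129330412-129330711, plus strand: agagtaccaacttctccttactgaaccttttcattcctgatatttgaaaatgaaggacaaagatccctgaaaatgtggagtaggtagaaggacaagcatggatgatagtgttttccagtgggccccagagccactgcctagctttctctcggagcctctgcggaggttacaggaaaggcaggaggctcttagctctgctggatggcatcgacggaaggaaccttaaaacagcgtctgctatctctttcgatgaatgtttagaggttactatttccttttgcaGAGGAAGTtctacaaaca
Element shared by Il1a and Il1b, chr2:129338145-129338444, plus strand: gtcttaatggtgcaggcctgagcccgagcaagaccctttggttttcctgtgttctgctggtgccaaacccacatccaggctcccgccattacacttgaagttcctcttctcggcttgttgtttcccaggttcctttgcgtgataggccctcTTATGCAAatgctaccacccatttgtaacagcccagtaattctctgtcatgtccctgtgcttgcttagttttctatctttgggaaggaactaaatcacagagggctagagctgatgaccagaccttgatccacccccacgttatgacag
Il1b upstream element, 2.32 kb, chr2:129373313-129373612, plus strand: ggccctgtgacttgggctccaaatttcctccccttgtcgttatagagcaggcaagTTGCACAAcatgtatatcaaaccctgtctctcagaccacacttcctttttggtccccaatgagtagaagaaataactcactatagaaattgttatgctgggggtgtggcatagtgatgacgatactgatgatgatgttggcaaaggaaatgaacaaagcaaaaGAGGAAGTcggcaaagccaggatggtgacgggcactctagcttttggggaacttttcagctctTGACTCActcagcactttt
The element nearest to Il1b held 1 motif each of Pu.1, AP-1 and C/EBP in this stretch. The shared element held 1 C/EBP motif and the element 20.6 kb upstream of Il1a 1 Pu.1 motif, close to one end of the stretch.

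Il1rn, the receptor antagonist, lies elsewhere on chromosome 2 (24336853 to 24351494, plus strand) and behaved otherwise. It had no listed site at 3 d.p.i. and 2 peaks in both lists. One of them, 1.27 kb upstream of the first start site, had a fold enrichment of 7.42 in Daxx-WT and 7.02 in Daxx-KO LT-HSCs, of 6.12 and 5.54 in KLS cells, and no peak in DKO. In Daxx-KO KLS cells 1 site was listed, in an intron 11 kb from the start, with 14.5, 7 and 8.47 scaled reads against 26.5 and 24.1.

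In DKO cells all 6 listed sites around Il1rn were higher than in Daxx-WT and all 6 passed the test. Of all listed DKO sites, 72.1% were higher and 67.3% were called higher. The highest signal lay 25 kb upstream of Il1rn, with 242 and 159 scaled reads in DKO against 57.7 and 70.2 in Daxx-WT (log2 difference 1.61, SE 0.359, limma adjusted p = 0.000283). A peak of 902 bp stood there in DKO cells, with a fold enrichment of 8.69 at percentile 95.6 of the DKO list. The other lists with a peak at this element were the 4 of CMPs and GMPs, and none of LT-HSCs or of Daxx-WT or Daxx-KO KLS cells. A neighbouring element, 18.6 kb upstream, was likewise shared by DKO and both GMP lists alone (718 bp in DKO). With values scaled to the mean reads per window the 6 log2 differences were 0.47 to 0.96 and none passed. Over all windows the DKO libraries averaged 10.6 and 15 scaled reads against 7.39 and 8.19 for Daxx-WT, and the part of this background in the result was not tested further.
Il1rn upstream element, 25.1 kb, chr2:24311641-24311940, plus strand: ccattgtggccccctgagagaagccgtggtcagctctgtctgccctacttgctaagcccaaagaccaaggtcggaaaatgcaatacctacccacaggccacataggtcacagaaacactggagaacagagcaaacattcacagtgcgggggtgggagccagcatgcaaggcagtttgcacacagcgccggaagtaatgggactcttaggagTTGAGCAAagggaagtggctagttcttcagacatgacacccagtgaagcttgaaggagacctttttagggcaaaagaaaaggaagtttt
The stretch is shown because its peak had the highest fold enrichment of the 6 DKO peaks that Daxx-WT lacked. It held 1 C/EBP motif and no copy of the Pu.1 motif as spelled above. The neighbouring element 18.6 kb upstream held 1 Pu.1 motif and 1 AP-1 motif in its central 300 bases.

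Il6 (chromosome 5, 30013114 to 30019981, plus strand) had a promoter peak in all lists except that of DKO cells, a pattern shared by 5.01% of protein-coding genes. The peak was among the stronger ones at 3 d.p.i., with a fold enrichment of 12.1 in Daxx-WT and 12.3 in Daxx-KO. It was 7.58 in Daxx-WT and 9.59 in Daxx-KO KLS cells. The DKO libraries had 79.5 and 69.3 scaled reads over the promoter and the Daxx-WT libraries 149 and 166 (log2 difference -1.07, SE 0.359, limma adjusted p = 0.0321). A distal element 23 kb downstream of the start was held by the Daxx-KO lists of LT-HSCs at 3 d.p.i. (fold enrichment 3.02, percentile 3.31 of its list) and of KLS cells (5.54). Neither matching Daxx-WT list held it. The LT-HSC lists without a time label did, with 557 bp in Daxx-WT and 552 bp in Daxx-KO, as did all CMP and GMP lists of both genotypes. In DKO the site of this element had 15.9 and 28.1 scaled reads against 52.4 and 41.7 (limma adjusted p = 0.0245). Il6 thus had 0 peaks in the DKO list, as Il1b and 29.7% of protein-coding genes did. The 200 bases before its first start site are shown, since the promoter peak was absent from the DKO list alone.
Il6 upstream sequence, chr5:30012914-30013113, plus strand: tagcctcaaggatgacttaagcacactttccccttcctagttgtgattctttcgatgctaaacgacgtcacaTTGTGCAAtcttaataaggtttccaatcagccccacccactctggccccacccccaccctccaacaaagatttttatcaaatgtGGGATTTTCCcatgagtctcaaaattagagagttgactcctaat
They held 1 match to the NF-kappaB consensus, ending 34 bases before the start site, and 1 C/EBP motif, and no copy of the Pu.1 motif.

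Tnf (chromosome 17, 35199381 to 35202007, minus strand) lies in a dense cluster between Ltb, Lst1 and Aif1 on one side and Lta and Nfkbil1 on the other, and had 9 to 15 peaks within 30 kb in every list. Its promoter had a peak in all 11 lists, as 49.3% of protein-coding genes did. At 3 d.p.i. this peak had a fold enrichment of 4.24 in Daxx-WT and 4.86 in Daxx-KO. A pair of intergenic elements upstream were listed as higher. The first, 7.99 kb upstream, had 114, 100.2 and 100.3 scaled reads in Daxx-KO against 64.2 and 61 in Daxx-WT (log2 difference 0.73, SE 0.218, limma adjusted p = 0.461), with a Daxx-KO peak of 1088 bp and no Daxx-WT peak. Both LT-HSC lists without a time label held this element, with 1333 bp in Daxx-WT and 954 bp in Daxx-KO, as did all CMP and GMP lists of both genotypes. The second, 16.4 kb upstream, had 138, 143 and 112 scaled reads against 76.6 and 82.5, with a peak in both lists. A site 17.6 kb downstream of the start, outside any peak, was lower (30.3, 17.2 and 26.4 against 47.3 and 56.3).

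The same 2 upstream elements were lower in DKO KLS cells than in Daxx-WT. At the first, the DKO libraries had 30.8 and 25.3 scaled reads and the Daxx-WT libraries 54.1 and 66.9 (log2 difference -1.08, limma adjusted p = 0.0294). The DKO list had no peak there, where the Daxx-WT and Daxx-KO KLS lists had one. At the second the DKO libraries had 76.4 and 63.7 scaled reads against 127 and 114 (limma adjusted p = 0.275), and the fold enrichment was 3.22 in DKO, 5.28 in Daxx-WT and 5.57 in Daxx-KO. Over Tnf itself the values were higher in DKO. A site in its exons, 1.48 kb from the start, had 178 and 107 scaled reads in DKO against 74.6 and 91, and one at the promoter 107 and 75.9 against 50.6 and 50.5, neither passing the test (limma adjusted p = 0.361 and 0.203). Their log2 differences of 0.74 and 0.82 became 0.05 and 0.14 with values scaled to the mean reads per window, and the first became 0.37 without the first DKO library. Of 11 DKO sites around Tnf, 6 were higher and 5 lower, and 3 of the higher and 1 of the lower passed. Among all listed DKO sites, 67.3% were called higher and 14.9% lower. The lower ones at Lst1 and the higher ones at Nfkbil1 lie over those neighbour genes.

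Among the chemokines, Ccl9 (chromosome 11, 83572919 to 83578636, minus strand), a monocyte attractant abundant in myeloid cells, had the 1 higher site at 3 d.p.i. It lay 9.01 kb from the start, past the end of the gene, with 151, 195 and 116 scaled reads in Daxx-KO against 92.4 and 87.2 in Daxx-WT (log2 difference 0.74, SE 0.272, limma adjusted p = 1). All Daxx-KO libraries were above both controls, and non-overlap of the groups held for 99.5% of the selected sites. The peak widened from 600 to 979 bp and its fold enrichment went from 3.98 to 6.88, a ratio of 1.73 at percentile 99.3. In KLS cells the Daxx-KO list held this peak (fold enrichment 5.34) and the Daxx-WT and DKO lists did not. Its central stretch is given as the chemokine element with the largest gain in fold enrichment at 3 d.p.i., and it held 1 Pu.1 motif.
Ccl9 downstream element, 9.19 kb, chr11:83569293-83569592, plus strand: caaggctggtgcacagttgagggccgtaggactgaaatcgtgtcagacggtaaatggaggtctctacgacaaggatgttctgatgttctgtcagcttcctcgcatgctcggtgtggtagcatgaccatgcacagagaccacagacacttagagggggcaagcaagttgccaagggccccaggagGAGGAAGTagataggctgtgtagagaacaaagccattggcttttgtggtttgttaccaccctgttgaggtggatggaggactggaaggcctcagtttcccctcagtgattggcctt

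Within 30 kb of Ccl9 the Daxx-WT KLS list had 4 peaks, the Daxx-KO list 6 and the DKO list 0, as at 29.7% of protein-coding genes. In DKO cells 5 sites, at the promoter of Ccl9 or at peaks of Daxx-WT KLS cells, were lower, 2 of them past the threshold, and 2 sites outside the peaks of either list were higher. Over all listed DKO sites, 14.9% were called lower and 67.3% higher. The lowest ratio lay 6.29 kb from the start, at the end of the gene, with 40.3 and 44 scaled reads in DKO and 158 and 110 in Daxx-WT (log2 difference -1.62, SE 0.359, limma adjusted p = 0.000253). At the promoter the values were 50.9 and 59 against 88.8 and 118 (limma adjusted p = 0.126), and a promoter peak was in the Daxx-KO KLS list alone among the 3 KLS lists. The greatest gain lay 20 kb upstream, beyond the promoter of Ccl6, with 70 and 69.3 scaled reads in DKO against 16.9 and 9.87 (log2 difference 2.34, SE 0.359, limma adjusted p = 4.09e-08). The 2 lists with a peak there were those of GMPs. With values scaled to the mean reads per window this site and the one 32.9 kb downstream of the start stayed past the threshold, as the 2 of the 16 higher sites that did.

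Ccl3 and Ccl4, neighbours on chromosome 11 (83647844 to 83649355, minus strand, and 83662584 to 83664683, plus strand) that both encode attractants of monocytes, share most of their surroundings. Neither gained a peak at 3 d.p.i. A strong element 8.85 kb from the Ccl3 start, present in all 11 lists, was lower at its site (270, 296 and 223 scaled reads in Daxx-KO against 343 and 362 in Daxx-WT), with a log2 difference of -0.43 (SE 0.233, 95% interval -0.97 to 0.11). Scaled to the mean reads per window, that difference was -0.09 and the Daxx-KO mean was the higher one. In KLS cells a peak over the Ccl3 promoter and one over the start of Ccl4 were in the Daxx-KO list and in neither of the others, 1563 bp wide (fold enrichment 5.4) and 630 bp wide (4.45). A further peak, 1.33 kb into Ccl4, was in the Daxx-WT and Daxx-KO KLS lists (3.37 and 3.79) and not in DKO. The Ccl3 promoter also had a peak in the LT-HSC lists of unlabelled time and in all CMP and GMP lists. A site 3.78 kb before Ccl4 had 32.9 and 48.7 scaled reads in DKO against 74.6 and 72.4 (limma adjusted p = 0.158).

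Cxcl2 (chromosome 5, 90903871 to 90905938, plus strand), which attracts neutrophils, had no listed site at 3 d.p.i. Its promoter peak had a fold enrichment of 3.9 in Daxx-WT and 3.92 in Daxx-KO at that time. In KLS cells the Daxx-KO list had a promoter peak of 1441 bp (fold enrichment 3.38, percentile 3.66 of its list) and Daxx-WT and DKO had none. At Cxcl2 3 sites, outside the peaks of the compared lists, were lower in Daxx-KO KLS cells, with 21.2, 12.3 and 16 scaled reads against 40.1 and 29.8 at the site 0.479 kb from the start. Cxcl2 had no listed site in DKO cells.

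Nlrp3 (chromosome 11, 59541568 to 59566956, plus strand) had a promoter peak in both lists at 3 d.p.i., with a fold enrichment of 5.1 in Daxx-WT and 6.79 in Daxx-KO. The 1 listed site at that time lay beyond the gene, 42.7 kb from the start, and was lower, with 18.4, 8.59 and 13.7 scaled reads against 38.3 and 27.2. In KLS cells the promoter was the 1 site of the 10 genes listed as higher in Daxx-KO. Its Daxx-KO libraries had 56.8, 188 and 78.1 scaled reads and its Daxx-WT libraries 58.4 and 41.3, so the groups overlapped. The log2 difference of 0.93 (SE 0.491, limma adjusted p = 1) became 0.43 without the second Daxx-KO library. DKO cells had no peak at the promoter, and a site 1.78 kb into the gene was higher there (35 and 47.8 against 16 and 16.5, limma adjusted p = 0.00543).

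In Daxx-KO KLS cells as a whole, 9 sites were listed around the genes, 8 of them lower, and 19.1% of the table was higher. Higher sites lay near 1 of 10 genes, against 15.8% of protein-coding genes, and lower ones near 5 of 10, against 53.7%. At 8 of 9 sites the groups did not overlap, against 99.6% of the table. None of the 9 sites passed the test, as 0% of the table did, and 8 had an unadjusted p below 0.05 in limma. None lay within a peak of the compared lists. In the peak lists, of 37 Daxx-KO peaks, 10 (27%, exact interval 13.8 to 44.1%) had no Daxx-WT peak, against 31.8% of the list, and 2 of 29 Daxx-WT peaks (6.9%) had no Daxx-KO peak, against 8.06%. The median ratio of fold enrichments was 1.2 over the 26 elements held by both lists and 1.19 over all 30037 such elements. The ratio was above 1 at 22 of the 26, against 88.6% of all. It was lowest at the element 10.7 kb from the Il1b start (0.777, percentile 0.39).

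The DKO list had 19 peaks around the genes. It had 0 at 3 of the 10 genes, against 29.7% of protein-coding genes. The Daxx-WT and Daxx-KO KLS lists had 0 at none of the 10, against 21.5% and 19%. Of the 37 Daxx-KO KLS peaks, 25 were missing from the DKO list (67.6%, exact interval 50.2 to 82%), as were 59.4% of the whole Daxx-KO list. All 10 that Daxx-WT lacked were without a DKO peak, against 90.8%, and 15 of the 27 that Daxx-WT shared (55.6%) were too, against 44.8%. The DKO list held 22156 peaks and the Daxx-KO list 44694. With the Daxx-KO list cut to its 22156 peaks of highest fold enrichment, 7 of 13 (53.8%) had no DKO peak, against 40.7%. Set against Daxx-WT, 16 of its 29 peaks (55.2%) had no DKO peak, against 48.4%, and 6 of the 19 DKO peaks (31.6%) had no Daxx-WT peak, against 21.4%. Those 6 lay at Il1rn with 2, Tnf with 2, and Il1a and Cxcl2 with 1 each. Of the 87 elements, 9 (10.3%) were in all lists but that of DKO cells, against 6.48% of 100446 elements in the genome. They lay near Il1a and Il1b, Il1b, Il6, Ccl9 (3), Tnf (2) and Nlrp3 (1).

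**Figure D3:**
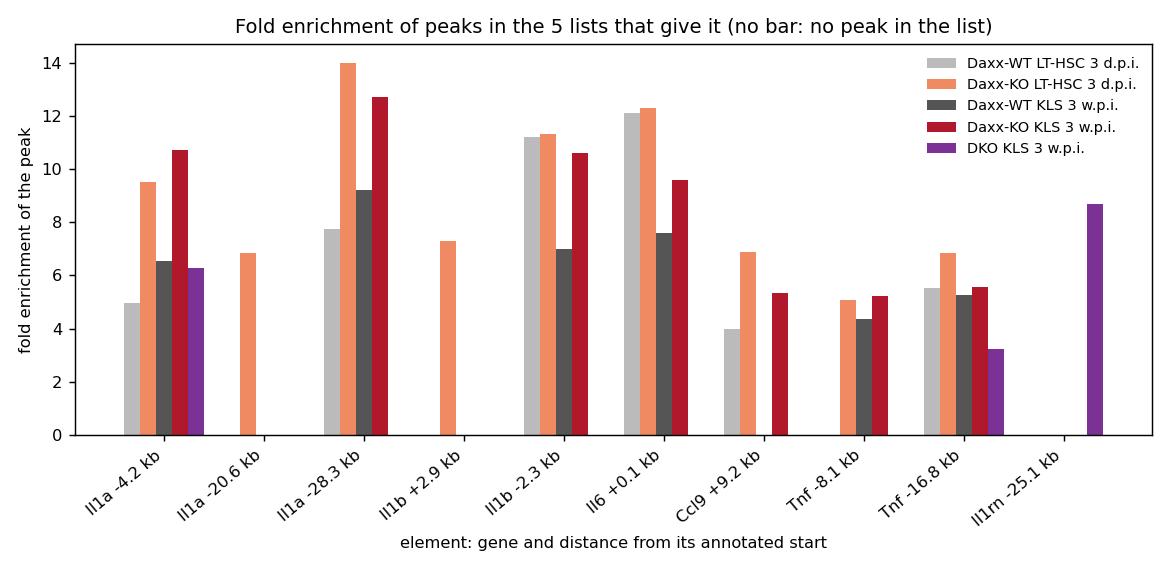
Fold enrichment of the peak at 10 elements (vertical axis, bars from 0) in the 5 lists that give it, with no bar where a list has no peak. At the element 28.3 kb upstream of Il1a the bar goes from 7.73 to 14 between the LT-HSC lists and from 9.21 to 12.7 between the KLS lists, with none in DKO, and the element 25.1 kb upstream of Il1rn has a bar in DKO alone.

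By the test, 20 of 32 DKO sites around the genes passed, 13 higher and 7 lower, against 82.2% of the table, 67.3% called higher and 14.9% called lower. In value, 16 of the 32 were higher, against 72.1% of the table. At all 32 the groups did not overlap, as at 50909 of all 50928 sites (100%). Higher sites lay near 4 of 10 genes (Il1rn, Tnf, Ccl9 and Nlrp3), against 66.6% of protein-coding genes, and lower sites near 8 of 10, all but Il1rn and Cxcl2, against 48.5%. With values scaled to the mean reads per window, 2 of the higher and all 16 of the lower sites passed, and no site turned by its log2 difference. In the whole table the calls were then 3314 higher and 13843 lower, in place of 34252 and 7603. With either DKO library left out, 0 sites passed. The standard error was 0.359 at every site, the spread that limma set for the whole table. The DKO and Daxx-KO tables share their 2 Daxx-WT libraries, so their values are set side by side here and were not compared by a test.

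**Figure D4:**
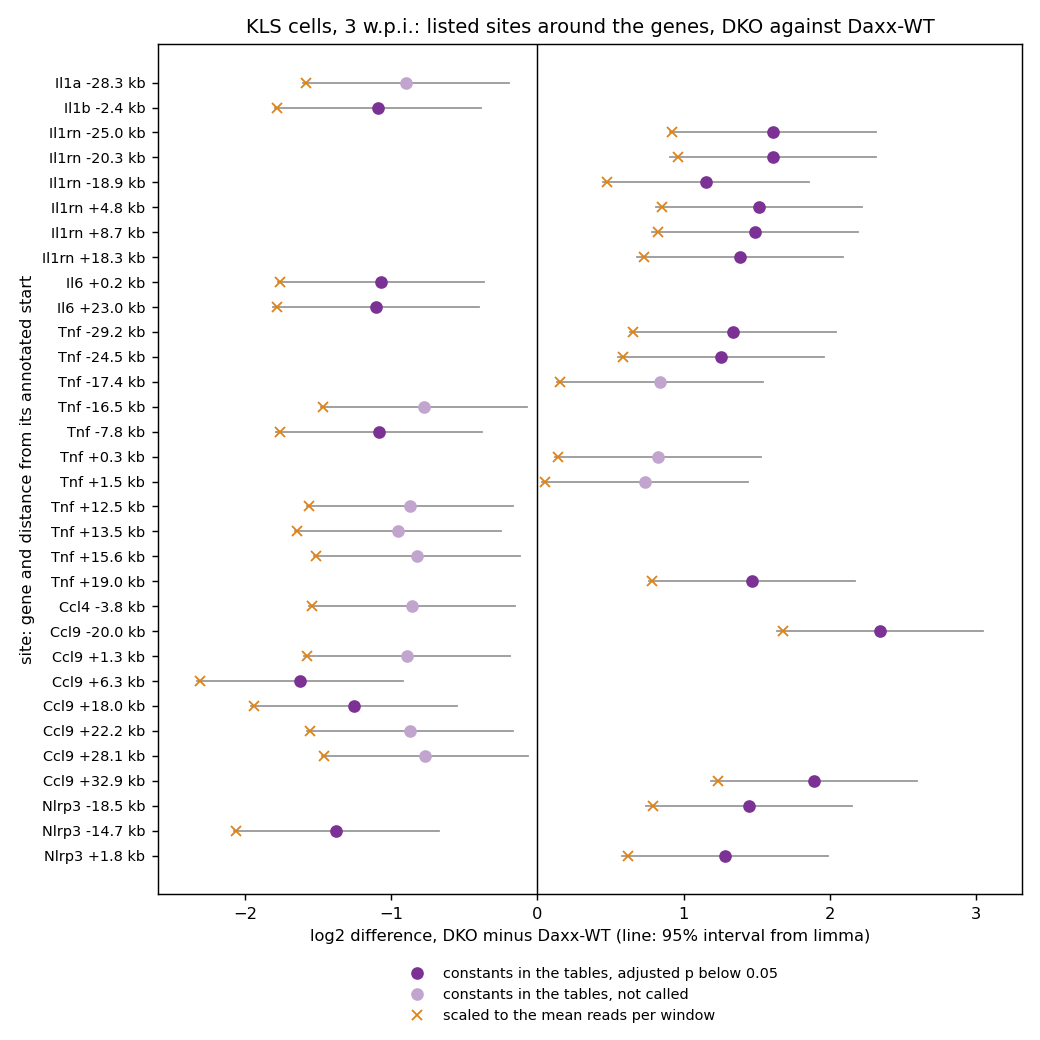
Log2 difference between DKO and Daxx-WT KLS cells at the 32 listed sites (points, dark where the adjusted p was below 0.05, with 95% intervals from limma), grouped by gene, and the same difference after scaling to the mean reads per window (crosses). Every site at Il1a, Il1b, Il6 and Ccl4 lies left of 0 and every site at Il1rn right of 0 on both scales, and the crosses lie to the left of the points throughout.

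In the LT-HSC lists without a time label, 7 of 53 Daxx-KO peaks (13.2%) had no Daxx-WT peak, against 13.9% of the list, and none of 47 Daxx-WT peaks lacked a Daxx-KO peak, against 6.78%. The 7 lay at Nlrp3 with 4, its promoter among them, Ccl9 with 2 and Il1b with 1. The last, past the end of Il1b and 10.7 kb from its start, was 775 bp wide and was also in the CMP, GMP, Daxx-WT KLS and Daxx-KO KLS lists. None of the 87 elements was in the Daxx-KO and not the Daxx-WT list of LT-HSCs at both times, against 0.93% of elements in the genome. Daxx-WT CMPs had 66 peaks and Daxx-KO CMPs 42, and 25 of the 66 (37.9%, exact interval 26.2 to 50.7%) had no Daxx-KO peak, against 28.5% of the list. Of the 42, 1 peak (2.38%) had no Daxx-WT peak, against 6.26%. In GMPs 17 of 76 Daxx-WT peaks (22.4%) had no Daxx-KO peak, against 27.6%, and 1 of 60 Daxx-KO peaks (1.67%) had no Daxx-WT peak, against 4.55%. The lists of these cells differed in length in the same direction, with 66070 and 50590 peaks in CMPs and 65306 and 49677 in GMPs, and their depth is not given. The peaks at the promoter of Cxcl2 and inside Il1b were in the Daxx-WT CMP list and not in that of Daxx-KO CMPs.

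**Figure D5:**
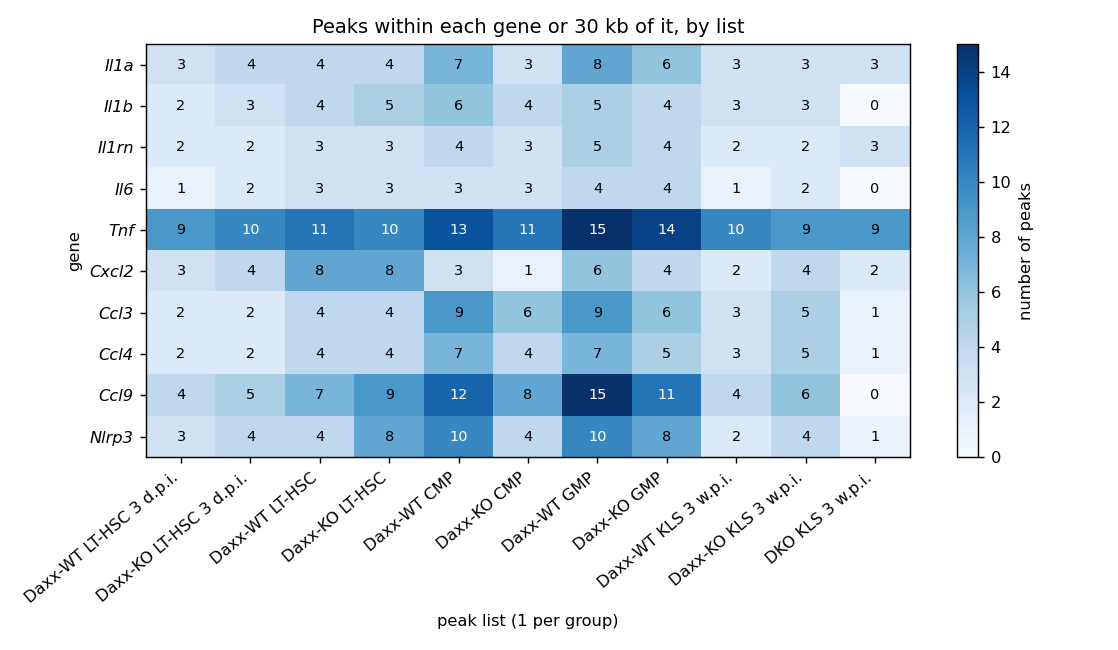
Number of peaks within each gene or 30 kb of it (shade and printed number) for the 10 genes (rows) in the 11 lists (columns). Il1b, Il6 and Ccl9 have 0 peaks in the DKO list, as do 29.7% of protein-coding genes, and Ccl9 goes from 4 in Daxx-WT to 6 in Daxx-KO KLS cells.

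Promoter peaks, within 1000 bp of any annotated start site, were found for 7 of the 10 genes in Daxx-KO and 6 in Daxx-WT LT-HSCs at 3 d.p.i., where 64.5% and 62.3% of protein-coding genes had one. Among KLS cells the counts were 7 in Daxx-KO, 4 in Daxx-WT and 1 in DKO, the last being Tnf, against 62%, 58.7% and 51.1% of protein-coding genes. Ccl3, Ccl9, Cxcl2 and Nlrp3 had a promoter peak in Daxx-KO KLS cells and not in Daxx-WT, and Il1rn the reverse, where the peak upstream of it ended on either side of the 1000 bp limit. Within 250 bp of a start site both LT-HSC lists at 3 d.p.i. had 4 such genes, and the KLS lists had 2 in Daxx-WT, 7 in Daxx-KO and 1 in DKO. The share of all protein-coding genes at 250 bp was not set beside these counts, so they are not read as particular to the 10 genes.

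The wider pathway was taken as 40 further genes of cytokines, chemokines, their receptors and NF-kappaB signalling. At 3 d.p.i., 15 of the 40 had in LT-HSCs a higher and 17 a lower site within 30 kb, against 19.7% and 36.4% of protein-coding genes, and 0 had a site that passed the test. The 5 genes with the highest ratio of means at a site within a Daxx-KO peak were Ccr2, Nfkb1, Ccl2, Ccl7 and Casp4. Upstream of the chemokine receptor gene Ccr2, by 20.4 kb, the Daxx-KO libraries had 63.3, 64.9 and 72.8 scaled reads and the Daxx-WT libraries 20.3 and 15. Between the monocyte attractants Ccl7 and Ccl2, 1 site had 253, 241 and 196 against 117 and 92.8. For Nfkb1, which encodes an NF-kappaB subunit, the site lay 126 kb from the start in an intron of its neighbour Manba, with 81.7, 85 and 73.9 against 36.1 and 31.9, and one 34 kb from the start of Casp4, an inflammatory caspase, 89, 99.3 and 81.3 against 59.7 and 34.7. In Daxx-KO KLS cells 9 of the 40 had a higher and 22 a lower site, against 15.8% and 53.7% of protein-coding genes, and again 0 passed. In DKO cells 35 had a higher and 24 a lower site that passed, against 65.8% and 28.2% of protein-coding genes.

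The motif counts over the 87 elements were read against the central 300 bases of all 100446 elements. The Pu.1 motif was in 13 of the 87 (14.9%), against 8.19%, the C/EBP motif in 19 (21.8%), against 14.6%, the AP-1 motif in 12 (13.8%), against 10.8%, and the NF-kappaB consensus in 6 (6.9%), against 3.93%. Of the 9 elements absent from the DKO list alone, 2 held the Pu.1 motif as spelled, 1 near Il1b and 1 near Ccl9. Of the 9 elements in all 11 lists, those 9.09 kb from the Ccl3 start and 4.21 kb upstream of Il1a held it too. These letters are 1 form of each motif in 1 window, and a match is not a bound site.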

How the data were processed

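The submitters' processing notes name CASAVA 1.8.4, cutadapt 1.13, STAR 2.5.3, bedtools and the mm10 build. In the methods CASAVA separated the pooled reads by library; the roles of the others and the read filters are not given in the sources used here. The authors deposited 11 peak lists, 1 per group. The 5 lists with a fold enrichment give it as a linear ratio per peak set by the authors; the other 6 hold positions alone. The authors also deposited 3 tables of sites from diffReps 1.55.6: per the file headers, windows of 600 bp were counted and those with p below 0.0001 were kept and merged. The scaled reads per library in them are read counts divided by a constant; the authors' own fold changes and p-values in the tables were not used.

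Repeated intervals were counted once. Peaks were shared at an overlap of 1 bp. Positions were set against GENCODE release M21 on the same build. Sites were tested with limma 3.58.1 in R 4.3.3 on log2(value + 1), over each whole table, called at an adjusted p below 0.05; because these libraries had already chosen the sites, the test is not independent. The study describes its replicates as biological samples. The step was tested on simulated data. Shares have exact 95% intervals, which cover counting error only. Other steps used Python 3.11.15. Motifs were set against merged elements of all lists rather than each list. The genes named were the 10 members, their neighbours at an element and 5 genes of the pathway list; members, lists and markers were chosen with earlier results of these data known. Some marker genes are not reported here. A legend in the study gives one control at 3 d.p.i. as Daxx +/F, whereas the labels give Daxx +/+ for both. Alternatives were another pseudocount, scaling, adjustment, window, overlap and value minimum, and leaving out each library.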

Additional observations from a re-analysis of the deposited data

How the results depend on the processing

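By the limma log2 difference, no listed site around the 10 genes turned under a pseudocount, scaling, filter, left-out library or block that was run. By the ratio of means 1 did at 3 d.p.i., at Ccl3, where 72.7% of sites were higher when scaled to the mean reads per window, in place of 63.6%. Calls by limma depended on the adjustment, since over the listed sites alone 10 member sites passed at 3 d.p.i., 8 in KLS cells of Daxx-KO and 32 in those of DKO mice (all sites 11428, 16711 and 50017 of the tables). A pseudocount of 5 gave 2 member sites and 4363 sites in all for Daxx-KO KLS cells, in place of 0. Scaling to the mean reads per window gave 15 sites in all at 3 d.p.i. in place of 0, and 17157 for DKO (3314 higher and 13843 lower) in place of 41855 (34252 and 7603). Leaving out 1 library gave 0 to 17 member sites and 0 to 35650 sites in all for DKO, 0 without either DKO library and 11 member sites and 26233 in all without the first Daxx-WT library; a lone library was then assumed to vary like the other group. The cause was not tested. The replicate numbers in the KLS headers share only a number (r = 0.035 and -0.00308 between the differences of numbers 1 and 2). With these as a replicate block 1 member site (31 kb from Cxcl2) and 2296 in all passed for Daxx-KO and 20 and 42605 for DKO. No paired analysis was possible at 3 d.p.i. because their columns carry no numbers. Within 10 kb the shares of Daxx-KO GMP peaks without a Daxx-WT peak and of Daxx-WT KLS peaks without a Daxx-KO peak were 0%; the latter was 27.6% with lists of equal length. Within 100 kb 68.8% of DKO sites were higher. Within 250 bp of a start site, 4 genes had a promoter peak in both lists at 3 d.p.i., 2 in the Daxx-WT and 7 in the Daxx-KO KLS list, with no share of all genes set beside them. For Daxx-KO KLS cells no member site lay in a peak of either group, so that share was not computed. The alternatives for the loss of peaks in DKO cells were chosen after seeing the data and stayed within the interval given.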
